A study of Mus musculus with 6 samples.

Results

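The axon guidance ligands and receptors described here are the rows of a hippocampal gene table whose symbols begin with the family names of semaphorins, plexins, neuropilins, Eph receptors, ephrins, netrins, Unc5 receptors, Slits and Robos. The name pattern matched 71 of 31838 rows. Of these, 67 are guidance genes proper, 35 ligands and 32 receptors. The other 4 match by name alone: Plxna4os1 and Plxna4os2, antisense transcripts of Plxna4; Unc50, which is not a netrin receptor; and Unc5cl, which shares a name and a death domain with the Unc5 family. These 4 were kept apart from the family counts.

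Sequencing covered polyadenylated RNA of the hippocampus in wild type C57BL/6 mice that were 4 months old. In the treated group, 3 libraries came from mice given butyl benzyl phthalate (BBP), a phthalate plasticiser, at 50 mg/kg/day. In the control group, 3 libraries came from mice given corn oil. Separate animals are not stated for the libraries of a group, and all p-values here therefore reflect only library-to-library spread, which may be technical.

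Axon guidance genes encode cues that attract or repel growing axons and the receptors that read them at the growth cone. Semaphorins signal through plexins, with neuropilins as co-receptors for the secreted class 3 members. Ephrins signal through Eph receptor tyrosine kinases, netrins through Dcc and Unc5 receptors, and Slits through Robo receptors. In the adult hippocampus many of these genes stay on in neurons and glia, where they are known to act on dendritic spines, mossy fibre connections and synaptic plasticity.

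Promoter sequences are shown for 6 members on which the results turn. Plxna2, Plxnb3 and Ntn5 had the smallest p-values between the groups. Sema7a was highest and Nrp2 lowest in BBP library 1. Epha4 was lowest there too, and next lowest in corn oil library 3. Each line gives the 250 bases before the RefSeq start on build GRCm38.p6, written 5′ to 3′ on the strand of the gene, with GC boxes (GGGCGG on either strand) in capitals. The intervals are chr1:194619579-194619828 for Plxna2 on the plus strand, chrX:73756853-73757102 for Plxnb3 on the plus strand, chr7:45683772-45684021 for Ntn5 on the plus strand, chr9:57939862-57940111 for Sema7a on the plus strand, chr1:62703067-62703316 for Nrp2 on the plus strand and chr1:77515089-77515338 for Epha4 on the minus strand. The RefSeq start of Plxna2 lies inside the deposited gene model, not at its outer end.
Plxna2: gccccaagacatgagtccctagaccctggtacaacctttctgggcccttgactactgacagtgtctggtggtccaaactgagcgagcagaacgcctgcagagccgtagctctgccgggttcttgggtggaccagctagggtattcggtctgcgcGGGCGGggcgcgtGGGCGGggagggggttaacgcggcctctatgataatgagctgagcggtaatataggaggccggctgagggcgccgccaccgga
Plxnb3: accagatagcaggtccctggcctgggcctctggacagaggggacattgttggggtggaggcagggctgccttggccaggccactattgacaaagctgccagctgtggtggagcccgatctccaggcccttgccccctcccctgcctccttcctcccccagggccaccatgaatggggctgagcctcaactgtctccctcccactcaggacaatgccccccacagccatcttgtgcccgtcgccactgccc
Ntn5: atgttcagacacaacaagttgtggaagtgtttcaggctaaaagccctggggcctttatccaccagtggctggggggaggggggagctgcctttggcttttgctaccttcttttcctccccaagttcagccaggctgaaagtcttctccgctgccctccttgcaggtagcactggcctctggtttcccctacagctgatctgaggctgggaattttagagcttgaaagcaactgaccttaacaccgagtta
Sema7a: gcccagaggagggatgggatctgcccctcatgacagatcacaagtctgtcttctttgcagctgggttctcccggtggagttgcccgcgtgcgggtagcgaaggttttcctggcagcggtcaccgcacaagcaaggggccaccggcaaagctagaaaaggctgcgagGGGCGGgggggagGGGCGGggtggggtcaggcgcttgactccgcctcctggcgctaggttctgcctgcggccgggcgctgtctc
Nrp2: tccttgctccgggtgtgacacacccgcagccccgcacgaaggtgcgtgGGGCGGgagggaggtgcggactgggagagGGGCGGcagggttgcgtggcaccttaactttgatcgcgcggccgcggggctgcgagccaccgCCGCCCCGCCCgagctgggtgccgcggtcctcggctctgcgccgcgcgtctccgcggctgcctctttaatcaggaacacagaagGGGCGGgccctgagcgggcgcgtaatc
Epha4: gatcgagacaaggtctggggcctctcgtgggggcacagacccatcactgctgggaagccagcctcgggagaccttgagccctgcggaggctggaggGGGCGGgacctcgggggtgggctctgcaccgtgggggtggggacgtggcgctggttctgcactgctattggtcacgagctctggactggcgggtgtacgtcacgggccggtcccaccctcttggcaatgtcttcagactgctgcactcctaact

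Nrp2 had 5 GC boxes and 32 CpG dinucleotides in this window, Plxna2 had 2 and 18, Sema7a 2 and 17, and Epha4 1 and 14. The windows of Plxnb3 and Ntn5 held no GC box and only 3 and 2 CpG dinucleotides. RefSeq gave 74 starts for 58 of the 67 guidance genes. Entries were missing for Efnb3, Ntn1, Plxna1, Plxna4, Sema3b, Sema3f, Sema6a, Slit1 and Unc5d. A GC box stood in 53 of the 74 windows (71.6%), against 32.7% of 32851 windows of all genes. Those windows cover 27025 symbols, taken without regard to their expression here, so they are not a matched background for the guidance genes. The median window of a guidance gene held 15.5 CpG dinucleotides and 64.4% GC, against 6 and 52.4% for all genes. The TATA box letters TATAAA, on either strand, stood in 2 windows (2.7%), against 12.4% of all. The cyclic AMP response element TGACGTCA stood in 1 (1.35%), against 1.55% of all. These matches describe letters in a window and no binding.

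The deposited estimated counts summed to between 62477604 and 68422361 per library, and the 71 rows took 0.283% to 0.328% of them. Markers of the hippocampal cell fields were present in every library, with no dentate, CA1 or CA2 and CA3 marker at 0. BBP library 1 stood apart. Which library was highest or lowest for a marker was judged on counts scaled to library size (CPM). All 13 striatal markers had their highest level there, by more than 1.25-fold over the next library, and their summed level was 206 FPKM (fragments per kilobase of transcript, scaled to library depth), against 53.9, 49.7 and 95.2 FPKM in corn oil libraries 1 to 3 and 54.0 and 49.0 FPKM in BBP libraries 2 and 3. Penk, the enkephalin precursor, was at 72.1 FPKM there and Ppp1r1b, a dopamine-regulated phosphatase inhibitor, at 51.4. Isocortical markers were highest there for 7 of 10 genes, and their summed level was 128 FPKM, against 57.5 to 65.8 FPKM elsewhere, while the other 3, Fezf2, Etv1 and Bcl6, were lowest there. Dentate granule markers were lowest there for 7 of 8 genes, with a summed level of 56.3 FPKM, against 71.8 to 93.6 FPKM in the other 5 libraries. Of those 7, Calb1 was slightly lower in BBP library 2 when taken in FPKM, at 24.0 against 24.1. CA1 markers were lowest there for 4 of 6 genes, with a summed level of 109 FPKM against 136 to 161 FPKM elsewhere. CA2 and CA3 markers were lowest there for 6 of 8 genes, yet their summed level was the highest, 297 FPKM against 222 to 264 FPKM, with Pcp4 alone at 226 FPKM there. Corn oil library 3 had the next highest striatal sum and the next lowest dentate sum, 95.2 and 71.8 FPKM. It differed from BBP library 1 in choroid plexus markers. These summed to 374 FPKM in corn oil library 3, with Ttr alone at 366, against 55.1 FPKM in BBP library 1 and 49.1 to 120 FPKM in the others. Values without BBP library 1 are therefore given beside the family medians that leaving it out moved by over 1.5 times and beside most of the genes described in which it lay outside the other 5. In whole tissue, fewer cells of a type and less RNA per cell cannot be told apart.

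All 67 guidance genes were above 0 in every library. Mean levels reached at least 10 FPKM for 10 genes, lay from 1 to 10 FPKM for 48 and were under 1 FPKM for 9. Summed over the genes of a family, the 20 semaphorins stood at a median of 116 FPKM over the 6 libraries (range 107 to 135), the 8 ephrins at 86.5 (75.6 to 90.4) and the 11 plexins and neuropilins at 64.7 (59.1 to 72.9). The 9 EphA receptors stood at 58.7 FPKM (39.2 to 60.2), the 8 netrins and Unc5 receptors at 47.4 (43.9 to 51.1), the 6 Slits and Robos at 41.8 (26.4 to 44.6) and the 5 EphB receptors at 25.4 (22.6 to 36.9). A single gene carried most of several families. Unc5a made up 70.8% of the netrin and Unc5 sum, Ephb6 67.8% of the EphB sum, Slit1 61.4% of the Slit and Robo sum and Efnb3 51.9% of the ephrin sum. The plexins and neuropilins were spread more evenly, with 21.3% in Plxna1, the leading gene.

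**Figure D1:**
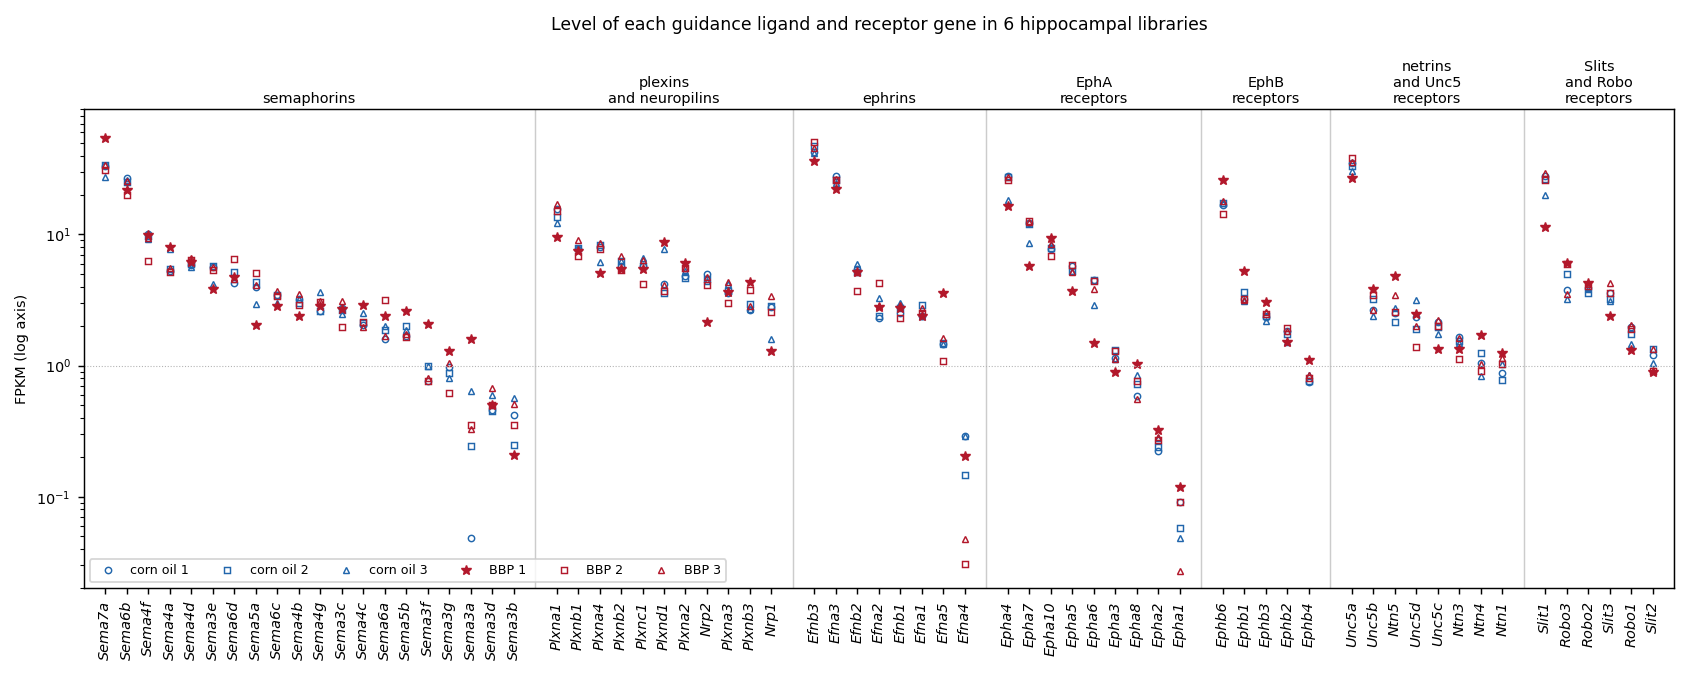
FPKM of each of the 67 guidance genes (log axis) in the 6 libraries, grouped by family and ordered by mean level within it; blue marks are corn oil, red marks BBP, and the filled star is BBP library 1. Efnb3 leads at 36.5 to 50.4 FPKM, and the star often lies outside the other 5 marks, as for Slit1, Epha6, Efna5 and Sema3a.

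The most abundant ligand gene was Efnb3, which encodes the membrane-spanning ephrin-B3. It stood at 42.9, 47.5 and 41.8 FPKM in corn oil libraries 1 to 3 and at 36.5, 50.4 and 45.7 FPKM in BBP libraries 1 to 3. The groups overlapped, with the lowest and the highest value both in the BBP group. Sema7a, the lipid-anchored semaphorin, followed at 33.5, 33.9 and 27.6 FPKM in corn oil and 54.3, 30.8 and 33.7 FPKM in BBP. BBP library 1 alone was above the rest. Then came Unc5a, a netrin receptor, at 35.4, 33.3 and 30.7 FPKM in corn oil and 27.1, 38.6 and 35.7 FPKM in BBP. Its exons overlap those of Hk3 on the opposite strand, and the strand setting of the counting is not given in the sources used here. Efna3, an ephrin-A, stood at 28.1, 26.1 and 24.8 FPKM in corn oil and 22.3, 26.0 and 26.4 FPKM in BBP. Each of these genes had a range that overlapped that of the next in the order. Within libraries, Efnb3 was above Sema7a in 5 of 6, Sema7a above Unc5a in 2 and Unc5a above Efna3 in all 6. The ranges of Efnb3 and Efna3 did not overlap.

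No guidance gene differed between BBP and corn oil after adjustment. The edgeR quasi-likelihood test with Benjamini-Hochberg adjustment called 0 of the 69 rows that passed the count filter, and 0 of 20428 genes in all (0%), with a smallest adjusted p of 0.953. DESeq2 called 0 members and 3 of 31820 genes (0.00943%). The 67 guidance genes all passed that filter. At an unadjusted p under 0.05 there were 4 guidance genes (5.8% of the 69 rows), against 685 of all tested genes (3.35%). All 4 had the higher mean in BBP. Of all tested genes, 1.98% were at that p with the higher mean in BBP and 1.37% with the lower. The median log2 fold change of the 69 rows was 0.04, against 0.01 over all tested genes, and 42 of them (60.9%) had a positive sign, against 52.4% of all tested genes. This small tilt depended on single libraries. The members' median was 0.09 without BBP library 1 (43 of 70 positive), -0.004 without BBP library 2 (33 of 69) and -0.007 without BBP library 3 (34 of 70). Without corn oil library 1, 2 or 3 it was 0.05, 0.07 or 0.02. The median standard error of a member was 0.18 on the log2 scale, and for 60 of the 69 rows (87%) the 95% interval lay within a 2-fold change in either direction, against 69.9% of all tested genes.

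**Figure D2:**
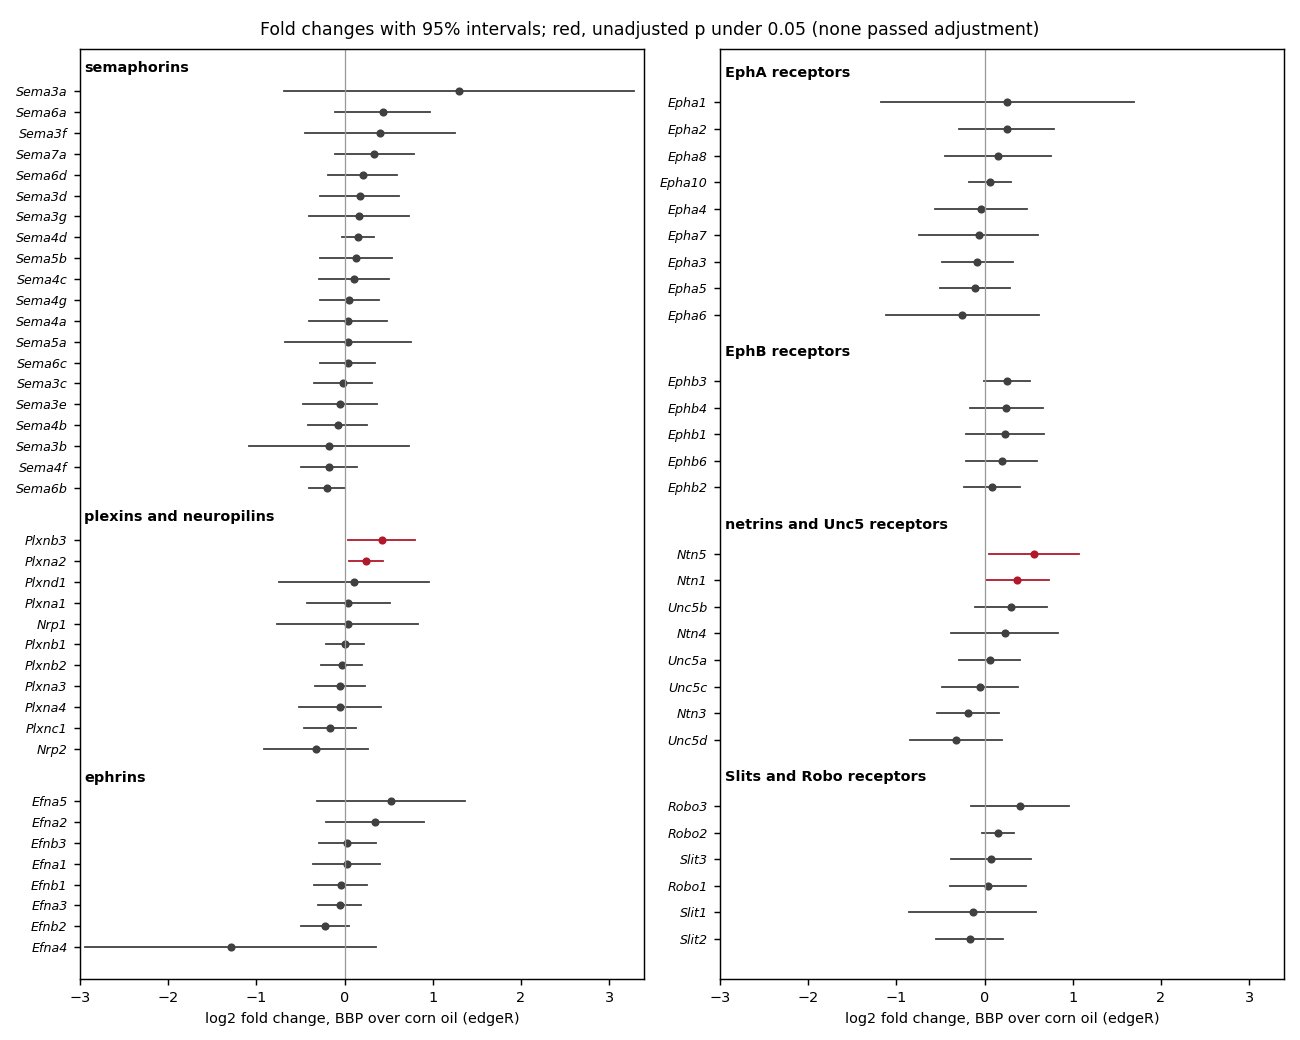
Log2 fold change of BBP over corn oil (points) with its 95% interval from edgeR (lines) for the 67 guidance genes by family; red marks the 4 genes at an unadjusted p under 0.05. Most points lie near 0, the 5 EphB points all lie to its right, and the widest intervals belong to Sema3a, Epha1 and Efna4, which had few counts or differed widely between libraries.

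Among the ligands, 22 of 35 had a positive log2 fold change (median 0.04), and 20 of 35 did without BBP library 1 (median 0.06). The ephrins were split, with 4 of 8 positive and a median of -0.01, and none of them was at an unadjusted p under 0.05. Efnb2, a ligand of EphB receptors, stood at 5.41, 5.19 and 5.97 FPKM in corn oil and 5.13, 3.73 and 5.21 FPKM in BBP, with a log2 fold change of -0.22 (SE 0.12). BBP library 2 was the low one, BBP library 1 lay just under the corn oil range and BBP library 3 within it. Efna4 had the largest negative value, -1.29 (SE 0.72), but on only 33, 17 and 36 counts in corn oil and 24, 4 and 6 in BBP. Without BBP library 1 its log2 fold change was -2.45, on those same few counts, and its adjusted p was no smaller than 0.70 in any fit that tested it. Efna2 stood at 2.31, 2.39 and 3.27 FPKM in corn oil and 2.79, 4.26 and 2.86 FPKM in BBP, highest in BBP library 2.

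The semaphorins had 14 of 20 positive values and a median log2 fold change of 0.08. Sema6b, a transmembrane ligand of plexin-A receptors, had the smallest p of the family (0.0576 before adjustment). It stood at 27.1, 24.9 and 26.1 FPKM in corn oil and 21.9, 20.1 and 25.4 FPKM in BBP, a log2 fold change of -0.20 (SE 0.09). BBP libraries 1 and 2 lay under all corn oil values, while BBP library 3 lay between them. Sema4d, a ligand of plexin-B1, had BBP values of 6.14, 6.34 and 6.64 FPKM, all above the corn oil values of 5.88, 5.95 and 5.66 FPKM, with a log2 fold change of 0.15 (SE 0.08). Sema4f, a transmembrane semaphorin, stood at 10.1, 9.73 and 9.30 FPKM in corn oil and 9.85, 6.29 and 9.38 FPKM in BBP. Sema4a, of the same class, stood at 5.30, 5.45 and 7.73 FPKM in corn oil and 8.03, 5.13 and 5.60 FPKM in BBP, with corn oil library 3 and BBP library 1 high, and its log2 fold change went from 0.04 to -0.16 without BBP library 1. The 7 secreted class 3 genes were scarce, with a summed level of 9.97 to 12.2 FPKM, and Sema3e made up 45.5% of it.

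Netrins and Unc5 receptors had 5 of 8 positive values and a median log2 fold change of 0.14. Ntn5, a secreted netrin-like protein, stood at 2.50, 2.16 and 2.75 FPKM in corn oil and 4.82, 2.57 and 3.43 FPKM in BBP. BBP libraries 1 and 3 were above all corn oil values, and BBP library 2 was among them. Its log2 fold change of 0.56 (SE 0.22, unadjusted p 0.0345) was 0.31 without BBP library 1. Its exons overlap those of Sec1 on the opposite strand, so its counts are uncertain. Ntn1, the classical netrin-1 that attracts axons through Dcc, stood at 0.881, 0.780 and 1.03 FPKM in corn oil and 1.25, 1.03 and 1.15 FPKM in BBP. The groups did not overlap, but BBP library 2 and corn oil library 3 were nearly level. Its log2 fold change was 0.37 (SE 0.16, unadjusted p 0.0441), and 0.32 without BBP library 1. Of the receptors, Unc5b stood at 2.64, 3.24 and 2.41 FPKM in corn oil and 3.86, 3.46 and 2.66 FPKM in BBP, and Unc5d at 2.36, 1.91 and 3.16 FPKM against 2.49, 1.38 and 2.02 FPKM. Neither had an unadjusted p under 0.05 in all 6 libraries.

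Among the receptors, 20 of 32 had a positive log2 fold change (median 0.05), and 22 of 32 did without BBP library 1 (median 0.13). Plexins and neuropilins were nearly evenly split, with 6 of 11 positive values and a median of 0.005, or 7 of 11 and 0.045 without BBP library 1. Plxna2, a receptor of class 6 semaphorins known from mossy fibre wiring, had the smallest p of all members. It stood at 4.83, 4.66 and 5.23 FPKM in corn oil and at 6.04, 5.52 and 5.58 FPKM in BBP. All 3 BBP libraries lay above all 3 corn oil libraries. The log2 fold change was 0.24 (SE 0.08, unadjusted p 0.0186, adjusted p 0.953), and it was 0.22 without BBP library 1. Over the other 16 fits it ranged from 0.19 to 0.29.

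Plxnb3, a plexin-B known from oligodendrocytes, stood at 2.65, 2.96 and 2.71 FPKM in corn oil and at 4.33, 3.79 and 2.83 FPKM in BBP. BBP libraries 1 and 2 were above all corn oil values and BBP library 3 was among them. Its log2 fold change was 0.42 (SE 0.17, unadjusted p 0.0344), and 0.30 without BBP library 1. The summed level of the 10 oligodendrocyte and myelin markers was highest in the same 2 BBP libraries, at 576, 794 and 599 FPKM in corn oil and 908, 935 and 643 FPKM in BBP. For 3 of the 10, Mobp, Mal and Cnp, corn oil library 2 was above 1 of those 2. None of these markers was at 0, and their part in the Plxnb3 values was not tested. Of the more abundant plexins, Plxna1 stood at 15.5, 13.6 and 12.2 FPKM in corn oil and 9.56, 15.1 and 17.0 FPKM in BBP, a log2 fold change of 0.04, or 0.26 without BBP library 1. The log2 fold change was 0.01 (SE 0.09) for Plxnb1 and -0.03 (SE 0.10) for Plxnb2.

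The 9 EphA receptors had 4 positive values and a median log2 fold change of -0.04, or 6 positive values and 0.07 without BBP library 1. Epha4, which binds ephrins of both classes, stood at 27.8, 27.2 and 18.4 FPKM in corn oil and 16.5, 26.1 and 27.6 FPKM in BBP. Corn oil library 3 and BBP library 1 were low and the other 4 libraries lay within 26.1 to 27.8 FPKM. Epha7 had the same 2 lowest libraries, with 12.3, 12 and 8.67 FPKM in corn oil and 5.74, 12.6 and 12.4 FPKM in BBP. Without BBP library 1 the log2 fold change went from -0.04 to 0.17 for Epha4 and from -0.07 to 0.23 for Epha7. Epha10, which lacks an active kinase, varied less, from 6.85 to 9.45 FPKM.

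The log2 fold change was positive for all 5 EphB receptors (median 0.24). Without BBP library 1 the count was 3 of 5 and the median 0.11. Ephb6, whose kinase is inactive, stood at 16.7, 17.3 and 17.4 FPKM in corn oil and at 25.9, 14.2 and 17.9 FPKM in BBP. Ephb1 stood at 3.23, 3.65 and 3.11 FPKM in corn oil and at 5.27, 3.19 and 3.16 FPKM in BBP. In both genes BBP library 1 alone was high, and without it the log2 fold change went from 0.19 to -0.06 for Ephb6 and from 0.24 to -0.03 for Ephb1. Ephb3 stood at 2.34, 2.38 and 2.17 FPKM in corn oil and 3.05, 2.46 and 2.58 FPKM in BBP, with no overlap, a log2 fold change of 0.25 (SE 0.11) and an unadjusted p of 0.0579. It too was highest in BBP library 1, and its log2 fold change was 0.17 without that library.

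Robo receptors and Slits had 4 of 6 positive values and a median log2 fold change of 0.05, or 5 of 6 and 0.20 without BBP library 1. Robo2, a Slit receptor, stood at 3.94, 3.55 and 3.87 FPKM in corn oil and 4.23, 4.04 and 4.19 FPKM in BBP. The groups did not overlap, and the log2 fold change was 0.15 (SE 0.08). Robo3, known from midline crossing, stood at 3.80, 4.99 and 3.22 FPKM in corn oil and at 6.11, 5.92 and 3.55 FPKM in BBP, with BBP libraries 1 and 2 high. Slit3, a secreted ligand of Robo receptors, stood at 3.56, 3.20 and 3.10 FPKM in corn oil and 2.38, 3.57 and 4.25 FPKM in BBP. This gave a log2 fold change of 0.07, and 0.28 without BBP library 1.

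Groups did not overlap in FPKM for 5 guidance genes, Plxna2, Ntn1, Ephb3, Robo2 and Sema4d, all higher in BBP, and for none in the other direction. This is 7.25% of the 69 rows, against 9.65% of all tested genes (4.4% higher and 5.25% lower in BBP). Without BBP library 1, 6 of 70 rows were at an unadjusted p under 0.05, against 7% of all genes. These were Plxna2, Slit3 and Plxna1 with the higher mean in BBP, and Efna4, Unc5d and Unc50 with the lower. Without BBP library 3 there were 10 of 70, against 7.26% of all genes. Leaving out BBP library 2 gave 4 of 69, against 3.43%, and leaving out corn oil library 3 gave 4 of 69, against 2.2%. Without corn oil library 1 or 2 there were 0 of 70, against 1.86% and 2.25% of all genes.

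On log2 CPM, BBP library 1 was the library farthest from the median of the 6 for 37 of the 67 guidance genes (55.2%), against 24.9% of all tested genes. It held the highest CPM for 23 of them and the lowest for 24, in all 70.1%, against 42.4% of all tested genes. In FPKM these counts differ slightly. Robo3, for example, was highest there in FPKM, at 6.11 against 5.92 in BBP library 2, but not in CPM. For 21 (31.3%) it lay more than 1.25-fold beyond the nearest other library, 11 above and 10 below, against 11.6% of all tested genes. For BBP library 2 that count was 7 (10.4%), against 13.3% of all tested genes. The shares are descriptions of these libraries and carry no test.

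The genes that were low in BBP library 1 included EphA receptors, Slits, a neuropilin, a plexin, Unc5c, Sema4b and Sema5a. The EphB receptors that lay apart there, Ephb1, Ephb4 and Ephb6, were on the high side. Epha6, an EphA receptor, stood at 4.53, 4.48 and 2.89 FPKM in corn oil and 1.48, 4.40 and 3.85 FPKM in BBP, and its CPM in BBP library 1 was 0.368 of the geometric mean of the other 5. Slit1, a secreted repellent read by Robo receptors, stood at 28.0, 26.7 and 19.9 FPKM in corn oil and 11.5, 25.8 and 29.3 FPKM in BBP, a ratio of 0.44. Nrp2, the class 3 semaphorin co-receptor, stood at 4.96, 4.58 and 4.42 FPKM in corn oil and 2.13, 4.09 and 4.74 FPKM in BBP, a ratio of 0.463. Its co-receptor relative Nrp1 stood at 2.78, 2.84 and 1.59 FPKM in corn oil and 1.29, 2.56 and 3.42 FPKM in BBP. Without BBP library 1 the log2 fold change went from -0.26 to 0.10 for Epha6, from -0.14 to 0.18 for Slit1, from -0.32 to -0.04 for Nrp2 and from 0.03 to 0.34 for Nrp1. Corn oil library 3 was the nearest library for 7 of the 10 genes that lay apart on the low side and for 1 of the 11, Sema3a, on the high side.

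On the high side, Sema3a, a secreted repellent, stood at 0.0488, 0.245 and 0.642 FPKM in corn oil and 1.61, 0.353 and 0.330 FPKM in BBP. BBP library 1 was the highest, followed by corn oil library 3, and the log2 fold change of 1.30 (SE 0.87) was 0.17 without BBP library 1. Efna5, an ephrin-A, stood at 1.46, 1.49 and 1.46 FPKM in corn oil and 3.58, 1.09 and 1.63 FPKM in BBP. Its log2 fold change of 0.53 with all libraries was -0.08 without BBP library 1. Sema7a likewise had 0.34 with it and 0.06 without it. Plxnd1, the receptor of Sema3e, stood at 4.22, 3.59 and 7.82 FPKM in corn oil and 8.78, 3.72 and 4.13 FPKM in BBP, high in the 2 libraries that had the highest striatal sums. Without BBP library 1 the Plxnd1 log2 fold change went from 0.10 to -0.37. Sema3f stood at 0.763, 1.00 and 1.00 FPKM in corn oil and 2.08, 0.764 and 0.798 FPKM in BBP, and its log2 fold change went from 0.40 to -0.20. The part of the striatal, isocortical and dentate marker shifts in these values was not tested.

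**Figure D3:**
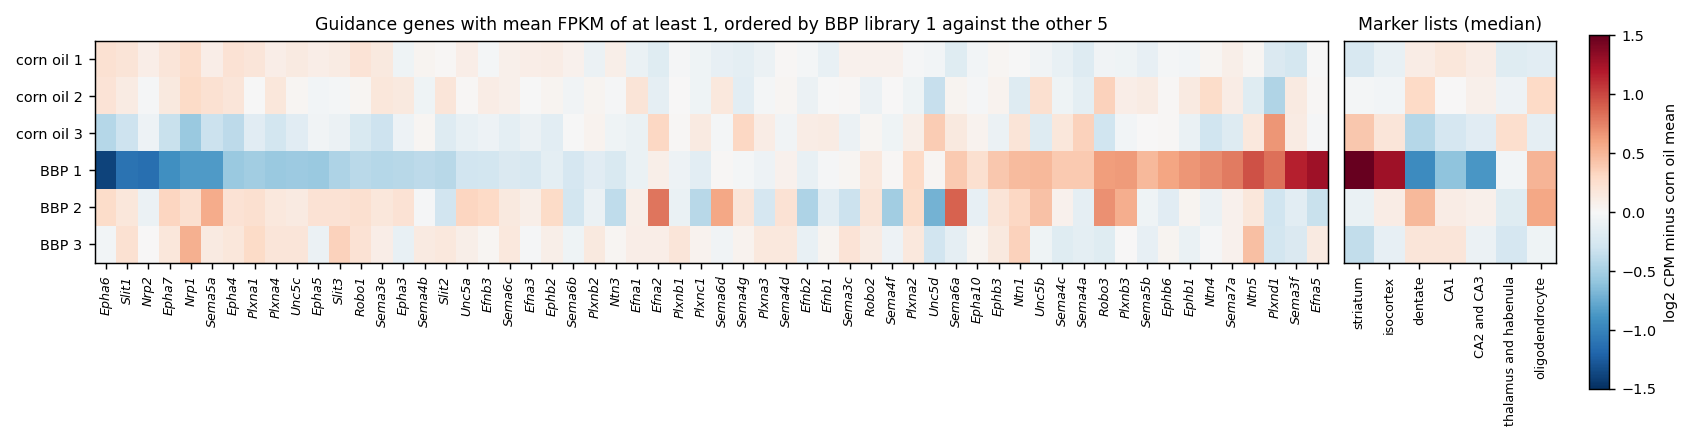
Log2 CPM (counts scaled to library size) minus the corn oil mean, as colour, for guidance genes with a mean of at least 1 FPKM, ordered by BBP library 1 against the other 5 (left), and median values of 7 marker lists (right), in the 6 libraries; values beyond the colour scale take its end colour. The row of BBP library 1 runs from deep blue at Epha6 to deep red at Efna5, and in the same row the striatal median is 1.74 and the dentate median -0.95.

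**Figure D4:**
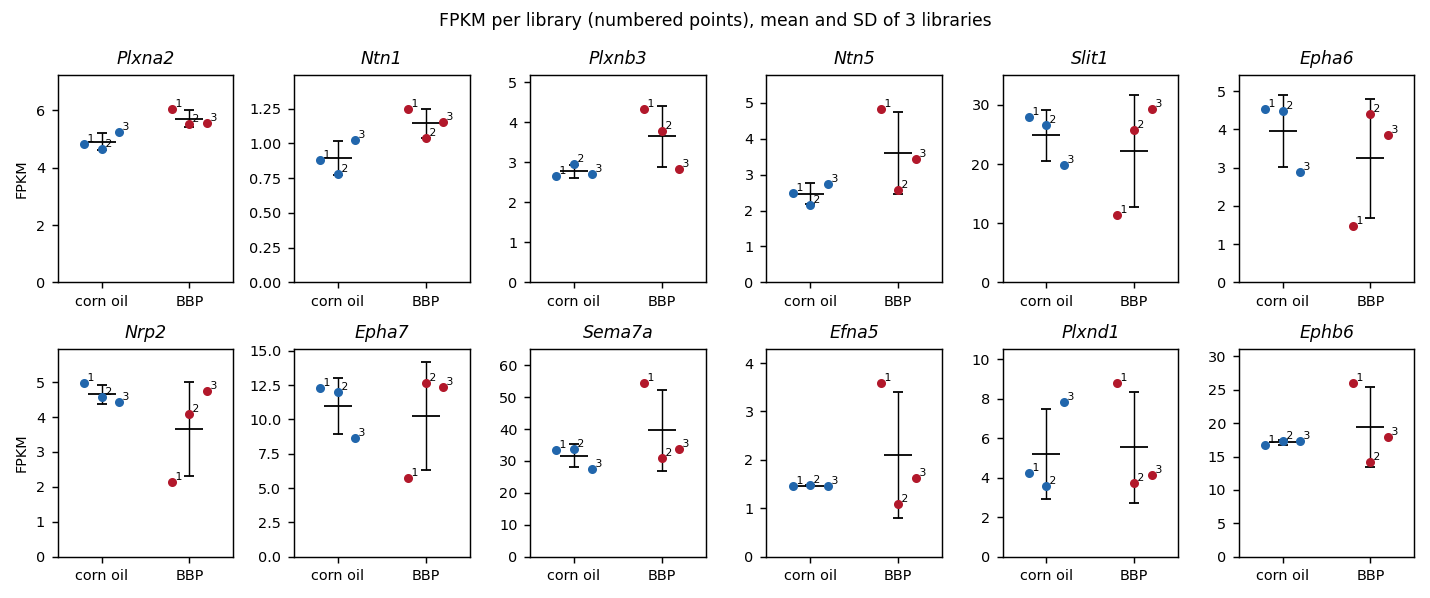
FPKM in each library (points, numbered 1 to 3) with the mean and SD of 3 libraries for 12 guidance genes. Plxna2 and Ntn1 have groups that do not overlap, while in Slit1, Epha6, Nrp2, Epha7, Sema7a, Efna5, Plxnd1 and Ephb6 the point of BBP library 1 lies away from BBP libraries 2 and 3.

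Of the rows that match by name only, Unc50 stood at 20.0, 20.9 and 19.6 FPKM in corn oil and 21.1, 13.1 and 18.6 FPKM in BBP, low in BBP library 2. Plxna4os1 had 8 to 37 counts per library. Plxna4os2 and Unc5cl had 0 counts in some libraries, at most 8 and 11 counts in any, and did not pass the count filter.

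Of 100 other genes (Dcc and other receptors, further ligands, intracellular effectors and sheddases), 0 passed adjustment and 4 were at an unadjusted p under 0.05, all with the higher mean in BBP, which is 4% against 3.35% of all tested genes. Their median log2 fold change was 0.06, with 62 positive. Dock1, an activator of Rac downstream of netrin signalling, had 1.36 ± 0.0936 FPKM (SD, n = 3) in corn oil and 1.9 ± 0.199 FPKM in BBP. Its log2 fold change was 0.52 (SE 0.13, unadjusted p 0.00457, adjusted p 0.953), and 0.50 without BBP library 1. The others were Arhgef12, which binds plexin-B receptors, at 0.24 (SE 0.09), the chemokine ligand Cxcl12 at 0.24 (SE 0.10) and the Nogo receptor Rtn4r at 0.29 (SE 0.12). The netrin receptor Dcc, named for its role, had 1.68 ± 0.254 FPKM (SD, n = 3) in corn oil and 1.60 ± 0.341 FPKM in BBP, a log2 fold change of -0.04 (SE 0.19).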

How the data were processed

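Per the labels' protocols, oligo(dT)-selected RNA was made into strand-marking paired-end libraries whose adapters carry molecular identifiers. Tools named in the submitters' processing notes, without role or order, are HISAT2 2.2.1, StringTie 2.1.6, cutadapt 1.9, edgeR, DESeq2 and UMI-tools, and the build is mm10. Estimated counts, all whole numbers, and FPKM were deposited by the authors for each gene in each library, per the file headers. The counting method was not given in the sources used here, nor was its strand setting. Exons of Efna3, Efna4, Epha1, Epha6, Epha10, Ephb1, Plxna1 and Plxnb1 also overlap those of another gene on the opposite strand. Their counts are uncertain for the same reason as those of Ntn5 and Unc5a. A count of 4 was more frequent than 3 or 5 throughout (1085 genes against 650 and 361 in corn oil library 1), so 1 fragment may stand for several counts.

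All genes were fitted in edgeR 4.0.16 (R 4.3.3) on the estimated counts, with TMM, filterByExpr, the quasi-likelihood F test and Benjamini-Hochberg adjustment. Treatment was the only term. The threshold was an adjusted p under 0.05. Standard errors were derived as the size of the log2 fold change divided by the root of F. FPKM values were used as deposited, for levels and overlap. The counts of libraries that were highest, lowest or farthest used log2 CPM. The steps were tested on simulated data.

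Alternatives were DESeq2 1.42.0, median-of-ratios size factors, no count filter, limma 3.58.1 on log2(FPKM + 1) above a mean of 1 FPKM, limma with pseudocount 0.1 or unfiltered, counts divided by 4, no mitochondrial genes, a replicate block and leaving out each library.

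The rule for named genes took, in each family, the 4 members with the highest mean FPKM and the 2 with the smallest p. It added members at an unadjusted p under 0.05. Of members with a mean of at least 1 FPKM, it took the 6 with the widest span between libraries. It also took antisense rows, the 6 other pathway genes with the smallest p and the 2 most abundant genes of each marker list. Not every gene the rule takes is given values. Sema3a, Sema3e, Nrp2, Plxnd1, Epha1, Dcc and some marker genes lie outside this rule. They were named for their levels or roles after their values were seen. The members, lists and rules were chosen with earlier results of these data known. Coordinates of 62 of the 71 rows equal those in GENCODE M21. Promoters come from the RefSeq table of build GRCm38.p6. Figures were drawn with matplotlib 3.10.9.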

Additional observations from a re-analysis of the deposited data

How the results depend on the processing

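No member passed adjustment in any of 16 other fits, where the smallest adjusted p was 0.624, and the members' median log2 fold change lay between -0.01 and 0.09. Of 69 members, 25 kept their sign in every fit that tested them, which for a few scarce genes such as Efna4 and Sema3a was not all 16. Over all genes, the count past the threshold was 0 with all libraries in edgeR, 3 with DESeq2, and 0 to 3 with each library left out in turn (1 without corn oil library 2 and 3 without BBP library 1). It was 1 without corn oil library 3 and BBP library 1 together, a fit chosen after seeing the data. The groups share replicate numbers. Libraries with the same number correlated at -0.0771, 0.0756 and -0.102 in their deviations from the group means, and those with different numbers at -0.0735 to 0.15. Deviations within a group of 3 sum to 0, which ties these values together. They cannot decide whether the numbers pair the libraries. With a replicate block, 0 genes and 0 members were called, 3 members and 494 genes were at an unadjusted p under 0.05, and the members' median was 0.03. The depth of fragments is not known from the counts, and members under 1 FPKM, such as Efna4 and Epha1, rest on few of them.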
